A study of Mus musculus with 8 samples.

Results

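The 8 genes described here belong to the p53 network: the family members *Trp53*, *Trp63* and *Trp73*, the p53 inhibitor *Mdm2*, and the p53 target genes *Eda2r*, *Ccng1*, *Trp53inp1* and *Sesn2*. They were chosen by symbol from the 25239 genes counted in RNA-Seq of E14.5 mouse fetal ovaries, as family members and targets in arrest or feedback outside the Bcl2 family. *Eda2r* was picked because it was higher in the mutant in these same libraries, so its values below are a description with no test. The other 7 were listed for their function, although with earlier results of these data known.

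Control embryos were *Bmpr1a* fl/fl, and mutant embryos were *Bmpr1a* fl/fl with 1 *Oct4-Cre* allele (Cre/WT), called *Bmpr1a*-cKO, all on a C57BL/6 background. The Cre is an inducible MerCreMer protein made from the *Oct4* locus, which is active in germ cells, so that the ovarian somatic cells of the mutant are meant to keep the receptor. The dams had received 1 mg of 4-hydroxytamoxifen and 0.5 mg of progesterone on each day from 9.5 to 11.5 dpc, and the control embryos were littermates without Cre. Effects of the Cre itself and of receptor loss therefore cannot be told apart in these libraries. There were 4 libraries per genotype, each from the ovary pairs of 2 embryos, and the embryos came from 6 litters. The litter of each library is not given in the sources used here, and litter therefore entered no test.

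p53 is a transcription factor that is kept scarce by MDM2, an E3 ubiquitin ligase, and that accumulates after DNA damage. It then activates genes for cell cycle arrest, repair, cell death and its own restraint, *Mdm2* among them, and most of this control acts on the protein rather than on *Trp53* mRNA. At E14.5 the germ cells of the fetal ovary are entering meiosis, in which chromosomes are broken on purpose, and the relative p63 guards the later oocyte against DNA damage. In RNA from whole ovaries, more cells of a type and more RNA per cell of that type cannot be told apart.

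The libraries held 8562961 to 15365052 counts, and an exact permutation test of depth between the genotypes gave p = 0.8 (two-sided). *Bmpr1a* itself was at 199 to 237 CPM (counts scaled to library size) in control and 185 to 209 CPM in *Bmpr1a*-cKO libraries, with a Log2FC of -0.16 (SE 0.064) and an FDR of 0.0692, and its groups overlapped. These counts include the somatic cells, which are meant to keep the receptor. The study reports that BMPR1A staining was lost in mutant germ cells but not in somatic cells. It also reports lower *Bmpr1a* in mutant ovaries by qRT-PCR. Ovarian and germ cell markers were present, as *Ddx4* was at 106 to 179 CPM over the 8 libraries and *Foxl2* at 113 to 122 CPM in control ovaries. All 7 pregranulosa markers fell in *Bmpr1a*-cKO ovaries, with a summed level of 843 to 914 CPM in control and 624 to 778 CPM in *Bmpr1a*-cKO libraries. Of 8 macrophage markers tested, 5 rose (sum 39.2 to 49.3 against 52.5 to 69.0 CPM), and of 7 germ cell markers 3 rose and 1 fell (sum 602 to 809 against 667 to 1048 CPM). Over all genes tested, 17.3% rose and 12.5% fell. Of the 7 germ cell markers *Dazl* was the largest in every library, at 282 to 381 CPM in control and 382 to 615 CPM in mutant libraries. It rose itself, with a Log2FC of 0.63 (FDR 0.00101). The part of these marker shifts in the results below was not tested, except where a value is given.

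Levels were first compared between the 8 genes as CPM per kilobase of exon, so that long and short genes are on 1 scale. In control ovaries the order was *Trp53* with 20.7 ± 0.905 CPM per kb (SD, n = 4), *Trp53inp1* with 16.6 ± 1.44, *Mdm2* with 13.0 ± 1.02, *Ccng1* with 10.5 ± 0.627, *Sesn2* with 9.44 ± 0.532, *Eda2r* with 0.830 ± 0.123, *Trp73* with 0.138 ± 0.0245 and *Trp63* with 0.0439 ± 0.0221 CPM per kb. The order of the means was kept in *Bmpr1a*-cKO ovaries, from *Trp53* with 26.2 ± 1.42 to *Trp63* with 0.0556 ± 0.0443 CPM per kb. Neighbours in this order overlapped between libraries for *Ccng1* and *Sesn2* in control ovaries, and for *Trp53inp1* and *Mdm2* and for *Trp73* and *Trp63* in *Bmpr1a*-cKO ovaries. For every other pair of neighbours, in either genotype, the ranges of the 4 libraries were apart. Exon length is that of all annotated exons of a gene, which overstates it where few isoforms are used.

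**Figure D1:**
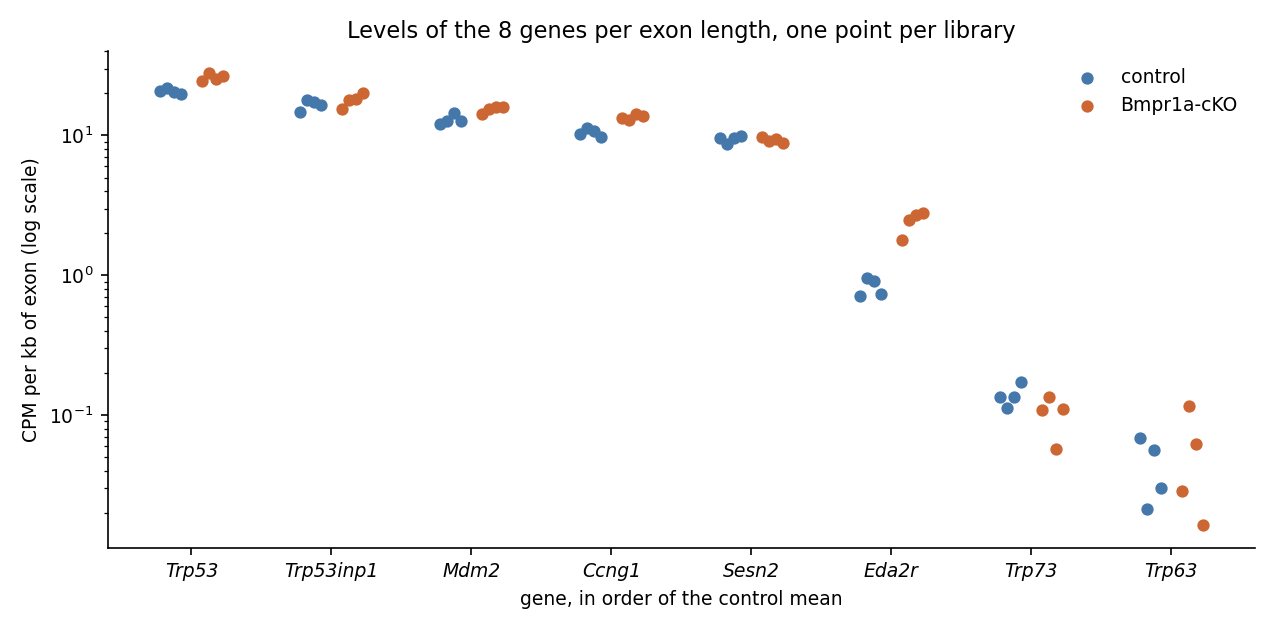
Level of each of the 8 genes as CPM per kb of exon on a log scale, 1 point per library, with control and *Bmpr1a*-cKO libraries side by side and genes ordered by the control mean. *Trp53* to *Sesn2* lie between 8.66 and 27.8 CPM per kb, *Eda2r* between 0.712 and 2.77, and *Trp73* and *Trp63* below 0.172.

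Of the 6 members with enough counts to be tested, *Trp53*, *Mdm2* and *Ccng1* rose modestly in *Bmpr1a*-cKO ovaries, *Trp53inp1* and *Sesn2* did not pass the test, and *Eda2r*, the member picked for its change, was 2.99-fold higher. Among the 5 tested members not picked for their change, 3 had an FDR below 0.05, all of them higher in the mutant, and 0 were lower. Over all 14249 genes tested the shares were 29.8% in either direction, 17.3% higher and 12.5% lower. Whether 3 of 5 differs from this background was not tested, and the members were listed with earlier results of these data known. None of the 3 reached the absolute Log2FC of 0.5 that the study asked of a differentially expressed gene (DEG) beside an FDR below 0.05, and 6.11% of all genes were DEGs on the higher side. Of the 3, *Trp53* and *Ccng1* had all *Bmpr1a*-cKO libraries above all control libraries, a pattern seen in 16.1% of all genes, and none of the 8 had the opposite pattern, seen in 11.7%. Of all calls, 58% were higher in *Bmpr1a*-cKO ovaries, a share that was 43.1% with library size alone and 7.63% with libraries scaled to germ cell markers.

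**Figure D2:**
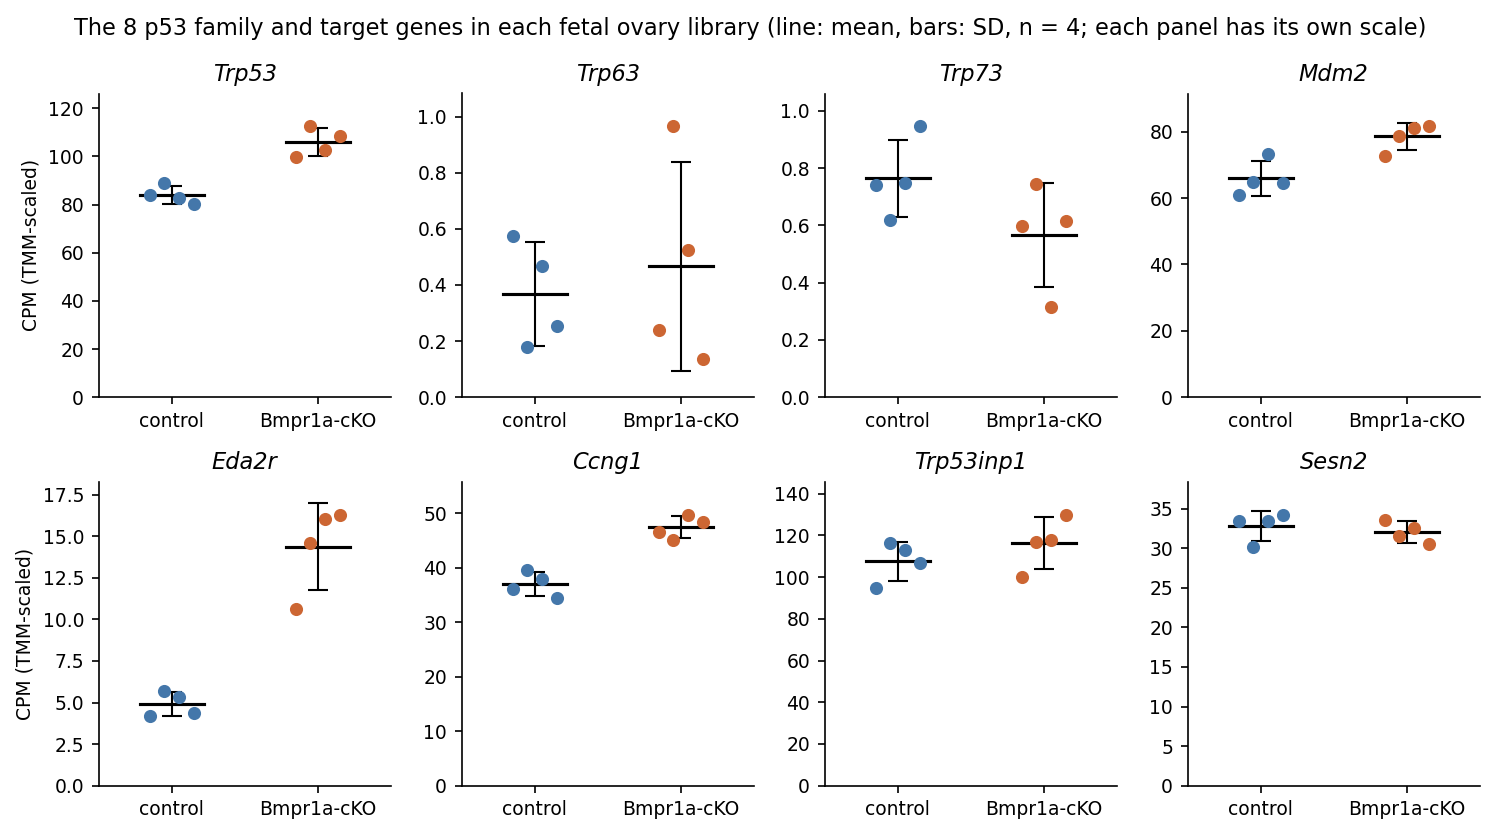
CPM of the 8 genes in each library, with the mean (line) and SD (bars) of 4 control and 4 *Bmpr1a*-cKO libraries; each panel starts at 0 and has its own scale. The groups are separated for *Trp53*, *Eda2r* and *Ccng1* and overlap for the other 5 genes.

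*Trp53* encodes p53 itself and lies on chr11:69580359-69591873 (mm10, plus strand). It was at 83.9, 88.8, 82.5 and 80.2 CPM in control libraries 1 to 4 and at 99.8, 113, 103 and 109 CPM in *Bmpr1a*-cKO libraries 1 to 4. The lowest mutant library therefore lay above the highest control library. The means were 83.9 ± 3.66 and 106 ± 5.76 CPM (SD, n = 4), the Log2FC was 0.34 (SE 0.061) and the FDR 0.000651 by the quasi-likelihood test of edgeR. An exact permutation test of the 8 values (two-sided) gave p = 0.0286, the smallest that 70 arrangements allow. A processed pseudogene of *Trp53* was not analysed here, and how reads shared with it were counted is not given in the sources used here.

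The relatives *Trp63* and *Trp73* act in epithelia and oocytes and in ciliated and neural cells, respectively, and both were close to the limit of detection. *Trp63* (chr16:25683763-25892102, plus strand) had 7, 2, 5 and 4 counts in the control and 2, 13, 5 and 2 counts in the *Bmpr1a*-cKO libraries. These add up to 18 counts in control (exact Poisson 95% interval 10.7 to 28.4) and 22 in *Bmpr1a*-cKO libraries (13.8 to 33.3), which cover counting error only. *Trp73* (chr4:154056253-154140208, minus strand) had 9, 7, 8 and 15 against 5, 10, 3 and 9 counts, summing to 39 (27.7 to 53.3) and 27 (17.8 to 39.3). In both genes the groups overlapped. Neither passed the filter on low counts. On CPM, exact permutation tests (two-sided, 4 against 4 libraries) gave p = 0.686 for *Trp63* and 0.0857 for *Trp73*, neither below 0.05. Without the filter, edgeR gave a Log2FC of 0.38 (FDR 0.692) for *Trp63* and -0.42 (FDR 0.504) for *Trp73*. The antisense gene *Trp73os* shares 280 exon bases (5.06%) with *Trp73*, and whether the counting used strand is not given in the sources used here.

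Genes of the cell types in which these relatives are best known differed widely in level. Of 7 basal epithelial genes, where p63 acts, 5 were tested, 0 rose, 1 fell and 4 did not pass, with a median Log2FC of 0.0076. Over all genes tested, 17.3% were higher and 12.5% lower. The basal epithelial gene that fell was *Dsp*, a desmosome gene of many epithelia (57.1 to 68.0 CPM in control and 37.8 to 48.3 CPM in mutant libraries, Log2FC -0.55, FDR 0.000139), while of the basal keratins *Krt14* was at 1.26 to 2.62 and 2.03 to 3.77 CPM and *Krt5* at 0 to 0.523 CPM over the 8 libraries. Of 8 genes of multiciliated cells, where p73 acts, 4 were tested, 1 rose, 0 fell and 3 did not pass, with a median Log2FC of -0.02, beside the same shares of all genes. The gene that rose was *Rfx3*, a ciliary transcription factor (41.2 to 46.1 CPM in control and 54.4 to 59.6 CPM in mutant libraries, Log2FC 0.34, FDR 0.0012), while *Foxj1*, a regulator of motile cilia, was at 1.06 to 3.28 and 0.967 to 2.41 CPM and *Mcidas*, the switch of multiciliation, at 0 to 0.223 CPM.

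Promoters are shown for members that the results turn on, because p53 activates its targets through a 20-base site made of 2 consecutive 10-base elements, the p53 consensus element. The windows are those of RefSeq on GRCm38.p6, from 250 bases before to 50 bases after a gene's start, on the gene's strand, and 6 of the 8 members matched (*Trp73* with 2 windows), not *Trp63* and *Trp53inp1*. Both strands were covered, since the consensus reads the same on each, and capitals mark exact 10-base elements and any 20-base site without spacer and with at most 2 mismatches.
Ccng1, chr11:40755237-40755536, minus strand: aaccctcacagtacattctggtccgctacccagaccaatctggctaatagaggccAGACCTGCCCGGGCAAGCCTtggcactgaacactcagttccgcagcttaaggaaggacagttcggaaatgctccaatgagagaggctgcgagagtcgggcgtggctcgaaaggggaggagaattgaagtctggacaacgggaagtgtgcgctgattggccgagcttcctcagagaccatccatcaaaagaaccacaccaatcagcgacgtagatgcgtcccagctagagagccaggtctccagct
Mdm2, chr10:117710709-117711008, minus strand: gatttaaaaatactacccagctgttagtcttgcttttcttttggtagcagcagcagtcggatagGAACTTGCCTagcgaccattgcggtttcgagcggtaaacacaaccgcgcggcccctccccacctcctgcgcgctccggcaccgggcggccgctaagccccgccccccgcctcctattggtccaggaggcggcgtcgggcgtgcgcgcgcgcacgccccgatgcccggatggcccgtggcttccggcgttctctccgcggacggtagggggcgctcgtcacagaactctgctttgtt
Trp53, chr11:69580109-69580408, plus strand: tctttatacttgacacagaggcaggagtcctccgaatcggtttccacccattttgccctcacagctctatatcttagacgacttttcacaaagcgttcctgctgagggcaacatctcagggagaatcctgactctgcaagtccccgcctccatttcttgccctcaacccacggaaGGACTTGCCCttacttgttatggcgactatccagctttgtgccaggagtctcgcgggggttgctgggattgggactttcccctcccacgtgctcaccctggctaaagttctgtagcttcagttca
Eda2r, chrX:97377160-97377459, minus strand: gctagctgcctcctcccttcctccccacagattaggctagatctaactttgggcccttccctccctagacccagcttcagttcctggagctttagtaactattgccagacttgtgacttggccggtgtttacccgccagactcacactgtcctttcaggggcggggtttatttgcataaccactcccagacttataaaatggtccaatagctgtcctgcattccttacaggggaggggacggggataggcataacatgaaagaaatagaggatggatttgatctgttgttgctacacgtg

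The *Ccng1* window held a 20-base site with 1 mismatch at 40755462 to 40755481, whose first base is at position -195 from the start. Such a site, with at most 1 mismatch, was in 29 of 32841 promoter windows (0.0883%). *Cdkn1a*, the classical p53 target, had one with 1 mismatch in the first of its 2 windows, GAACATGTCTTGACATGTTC at chr17:29090928-29090947. The windows of *Mdm2* and *Trp53* held 1 exact 10-base element each, GAACTTGCCT at position -186 and GGACTTGCCC at position -75, as did 8.36% of all windows (at least 1). The first window of *Trp73* had a site with 2 mismatches, as had 0.798% of windows at this limit. In *Eda2r* and *Sesn2* the best sites had 6 and 5 mismatches, and 76.6% of all windows have 5 or fewer. A match is a description of the letters in this window and not a bound site, and elements outside the window were not searched.

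*Mdm2* (chr10:117688875-117710758, minus strand), which both restrains p53 and is switched on by it, was at 61.0, 64.8, 73.2 and 64.7 CPM in control and at 72.8, 78.8, 81.0 and 81.7 CPM in *Bmpr1a*-cKO libraries. Control library 3 lay just above *Bmpr1a*-cKO library 1, so the groups overlapped by this pair. The Log2FC was 0.26 (SE 0.069) with an FDR of 0.0109, and the exact permutation test gave p = 0.0571 (two-sided, 70 arrangements). Leaving out any 1 library, the FDR of *Mdm2* stayed below 0.05.

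*Ccng1* (chr11:40748552-40755311, minus strand), the gene with the near-complete site, encodes cyclin G1, a p53 target that feeds back on MDM2. It was at 36.1, 39.5, 37.8 and 34.4 CPM in control and at 46.5, 45.1, 49.7 and 48.4 CPM in *Bmpr1a*-cKO libraries. The groups were separated by more than the spread within either. The means were 36.96 ± 2.20 and 47.5 ± 2.03 CPM (SD, n = 4), with a Log2FC of 0.36 (SE 0.069), an FDR of 0.00105 and an exact permutation p of 0.0286 (two-sided).

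*Trp53inp1* (chr4:11156431-11174379, plus strand), a nuclear cofactor of p53 in its death response, was at 94.9, 116, 113 and 107 CPM in control and at 100.03, 117, 118 and 129.98 CPM in *Bmpr1a*-cKO libraries. The groups overlapped widely. The Log2FC was 0.11 (SE 0.081) and the FDR 0.314, with an exact permutation p of 0.314 (two-sided).

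*Sesn2* (chr4:132492032-132510501, minus strand) encodes sestrin 2, which restrains mTORC1 and is induced by p53 and by the stress factor ATF4. It was at 33.5, 30.1, 33.4 and 34.3 CPM in control and at 33.6, 31.5, 32.6 and 30.5 CPM in *Bmpr1a*-cKO libraries. These ranges nearly coincide. The Log2FC was -0.04 (SE 0.071), with an FDR of 0.722 and an exact permutation p of 0.514 (two-sided), and its sign turned to 0.02 with an offset for GC content.

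*Eda2r* (chrX:97333840-97377216, minus strand) encodes a receptor of the TNF receptor superfamily for the ectodysplasin form EDA-A2 and is a known p53 target. It was at 4.19, 5.67, 5.34 and 4.35 CPM in control (51, 64, 57 and 69 counts) and at 10.6, 14.6, 16.0 and 16.3 CPM in *Bmpr1a*-cKO libraries (89, 196, 153 and 239 counts). Every mutant library lay well above every control library, and the first mutant library was the lowest of its group. The means were 4.89 ± 0.725 and 14.4 ± 2.62 CPM (SD, n = 4) and the Log2FC 1.58 (SE 0.15), which placed it 155th from the top of the 14249 genes tested. With each library left out in turn the Log2FC ran from 1.503 to 1.69, the highest being without *Bmpr1a*-cKO library 1.

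Within the mutant libraries *Eda2r* had the same order as germ cell marker RNA. It also had the reverse order of the summed pregranulosa markers, at 778, 686, 634 and 624 CPM in *Bmpr1a*-cKO libraries 1 to 4. In control libraries *Eda2r* was higher in 2 and 3 than in 1 and 4. Control library 3, with the highest germ cell marker sum, had less of it than library 2 (5.34 against 5.67 CPM). In *Bmpr1a*-cKO libraries 1 to 4 the summed CPM of the 7 germ cell markers were 667, 910, 922 and 1048, in the same order as *Eda2r*, and in control libraries they were 603, 700, 809 and 602. Per 100 CPM of these markers, *Eda2r* was at 0.695, 0.810, 0.660 and 0.723 CPM in control and at 1.59, 1.60, 1.74 and 1.56 CPM in *Bmpr1a*-cKO libraries. Per 100 CPM of *Ddx4* alone, which encodes a germ cell RNA helicase and did not pass the test itself (FDR 0.561), it was at 3.17 to 3.74 in control and 8.73 to 10.1 CPM in *Bmpr1a*-cKO libraries. The groups stayed apart in both ratios. This is a description and no test, since *Eda2r* was picked for its rise and the markers differed far less between the genotypes. *Trp53* per 100 CPM of the 7 markers was at 10.2 to 13.9 CPM in control and 10.4 to 14.97 CPM in *Bmpr1a*-cKO libraries, which overlap. Per 100 CPM of *Ddx4* it was at 49.0 to 66.5 CPM in control and 60.6 to 94.2 CPM in *Bmpr1a*-cKO libraries, which also overlap. Which cells of the ovary held the *Eda2r* RNA was not tested.

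**Figure D3:**
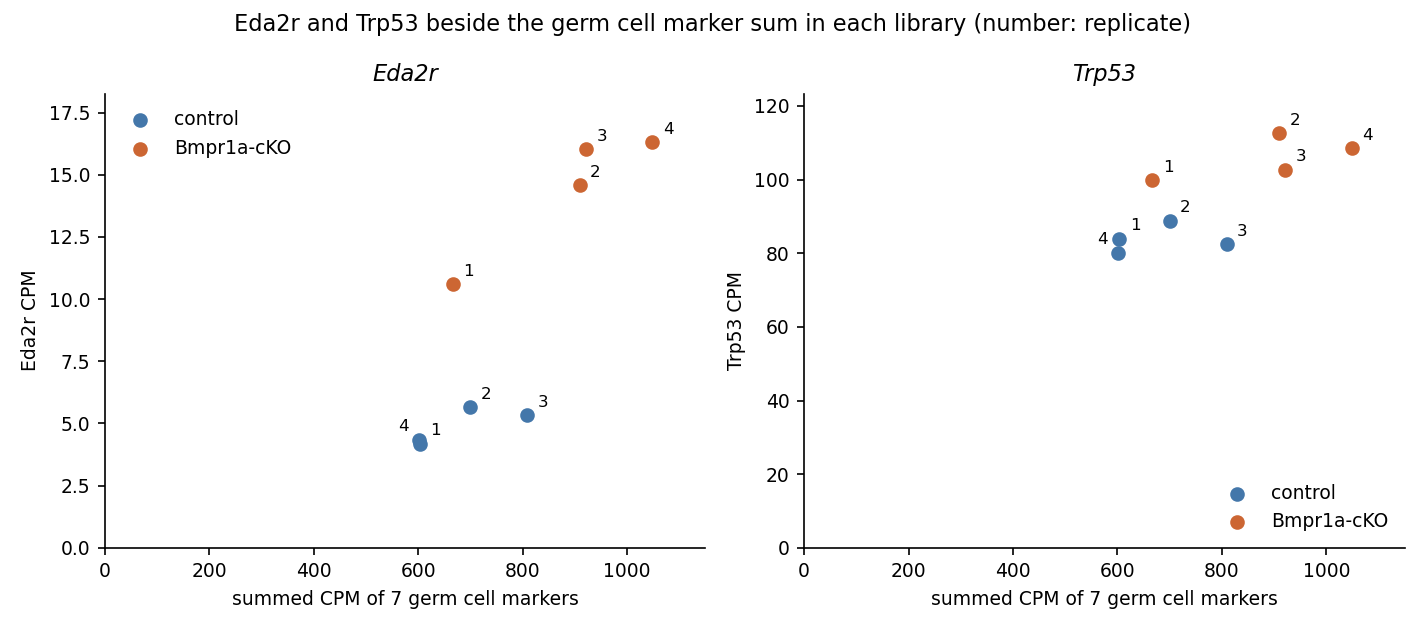
CPM of *Eda2r* (left) and *Trp53* (right) against the summed CPM of 7 germ cell markers, 1 point per library and numbered by replicate. At a like marker sum, as in control library 2 (700 CPM) and *Bmpr1a*-cKO library 1 (667 CPM), *Eda2r* was at 5.67 and 10.6 CPM and *Trp53* at 88.8 and 99.8 CPM. In this single pair *Ddx4* was at 151 and 106 CPM and *Dazl* at 345 and 382 CPM, so a like sum does not show a like germ cell content.

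How much of these changes is seen depends on what the libraries are scaled to. Scaling to the 7 germ cell markers moved the median Log2FC of all genes from -0.0042 to -0.38, and *Trp53*, *Ccng1* and *Mdm2* then had a Log2FC of -0.04, -0.01 and -0.12, with 0 of the 5 members past the test. Relative to that median they were at 0.34, 0.37 and 0.26, and *Eda2r*, with 1.17 on this scale, was at 1.55. In the main fit these differences from the median were 0.34, 0.37, 0.26 and 1.58. A change of scaling shifts all genes nearly alike, so such a difference cannot show whether a rise outlasts the scaling. Of those 7 markers 4 themselves changed, and *Dazl*, the largest in the sum, rose (Log2FC 0.63, FDR 0.00101). The 3 that did not pass the test (*Ddx4*, *Tdrd1* and *Piwil2*) were therefore also used, a choice made after seeing the data. Markers picked for not passing in the main fit hold this scaling near the main one, so it is no independent check. *Trp53*, *Ccng1* and *Mdm2* then had a Log2FC of 0.25, 0.28 and 0.17 with 0 of 5 members past the test, and *Eda2r* one of 1.45. The SE of *Trp53* rose from 0.061 to 0.19 and 0.20 under these scalings. Under RLE, upper-quartile and library size scaling the same 3 members passed.

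**Figure D4:**
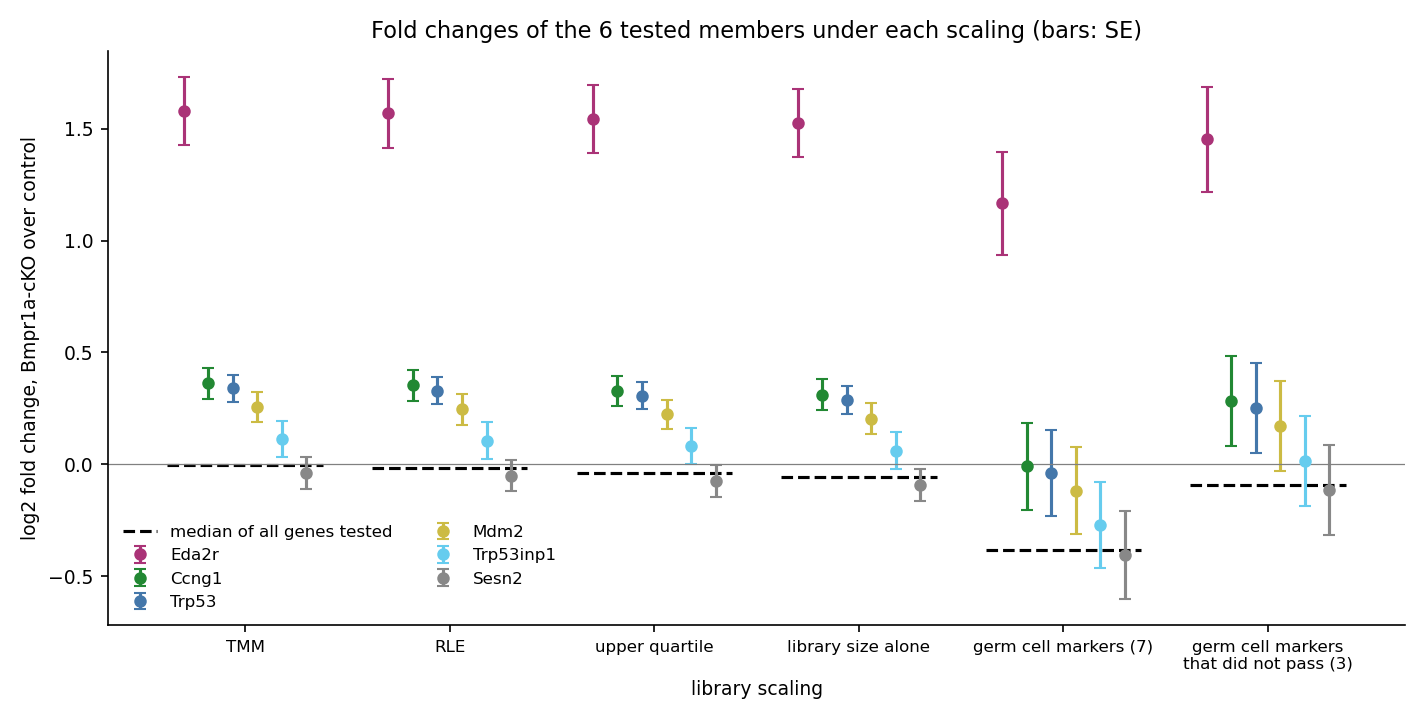
Log2FC (points) and SE (bars) of the 6 tested members under 6 scalings of the libraries, with the median of all tested genes as a dashed line. *Eda2r* lies between 1.17 and 1.58 throughout, while *Ccng1*, *Trp53* and *Mdm2* lie above 0 under 5 scalings and below it when the 7 germ cell markers set the scale.

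The closest relatives of the members moved in either direction, as 1 of 5 rose, 1 fell and 3 did not pass (median Log2FC -0.09), beside 17.3% of all genes higher and 12.5% lower. *Mdm4*, the partner of MDM2 that also inhibits p53, rose (131 to 147 CPM in control, 149 to 171 CPM in mutant libraries, Log2FC 0.20, FDR 0.0202), although not with library size alone (FDR 0.093), with the GC offset (FDR 0.0576) or without control library 1 or 4 or mutant library 2 or 3 (FDR 0.0513 to 0.0864), and its sign turned when scaled to the 7 germ cell markers (Log2FC -0.17). *Sesn3*, a sestrin under FOXO control, fell (103 to 117 CPM in control, 82.8 to 106 CPM in mutant libraries, Log2FC -0.29, FDR 0.0113). The other 3 did not pass the test, as *Sesn1* had a Log2FC of 0.02, *Ccng2* of -0.17 and *Trp53inp2* of -0.09. *Ccng2* passed with upper-quartile scaling (FDR 0.0461), library size alone (FDR 0.0403) and the GC offset (FDR 0.00657), and the sign of *Sesn1* turned under each of these (Log2FC -0.036 to -0.018). *Cdkn1a*, which encodes p21, the CDK inhibitor through which p53 arrests the cell cycle, was at 26.1 to 31.3 CPM in control and 27.9 to 36.1 CPM in *Bmpr1a*-cKO libraries, with overlap (Log2FC 0.21, SE 0.092, FDR 0.105, and FDR 0.0479 without mutant library 2). Its sign turned when scaled to the 7 germ cell markers (Log2FC -0.17).

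Further p53 targets, taken from lists of known genes, were divided by role. Of 27 targets in arrest, repair and feedback, 25 were tested, 7 rose, 1 fell and 17 did not pass, where 17.3% of all genes were higher and 12.5% lower. Their median Log2FC was 0.09 against -0.0042 over all genes. *Gtse1*, a G2 and S phase protein that pulls p53 out of the nucleus, rose (28.7 to 37.4 CPM in control, 52.4 to 56.7 CPM in mutant libraries, Log2FC 0.73, FDR 1e-05). *Plk3*, a stress-responsive polo kinase, rose (2.65 to 3.84 CPM in control, 5.84 to 6.28 CPM in mutant libraries, Log2FC 0.97, FDR 0.000281). *Ckap2*, a spindle protein, and *Zmat3*, an RNA-binding protein, rose with a Log2FC of 0.45 (FDR 0.00108) and 0.39 (FDR 0.00229). *Ddb2*, which recognises UV lesions for nucleotide excision repair, fell (21.2 to 33.6 CPM in control, 11.1 to 16.2 CPM in mutant libraries, Log2FC -1.02, FDR 6.1e-05), and shares 23.8% of its exon bases with *Acp2* on the other strand. In these 5 genes, named for their low FDR, the libraries of the genotypes did not overlap. Over all genes, 16.1% had all mutant libraries above and 11.7% all below the control libraries. *Gtse1* and *Ckap2* are also genes of dividing cells.

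Of 9 targets in cell death, 7 were tested, 4 rose, 0 fell and 3 did not pass, where 17.3% of all genes were higher and 12.5% lower. Their median Log2FC was 0.27 and all 7 were above 0, as were 49.4% of all genes tested. *Bax*, the effector that permeabilises mitochondria, rose (22.8 to 27.4 CPM in control, 36.1 to 50.04 CPM in mutant libraries, Log2FC 0.80, FDR 2e-05), with 12.2% of its exon bases shared with *Gm45808* on the same strand. *Apaf1*, the scaffold of the apoptosome, rose with a Log2FC of 0.24 (FDR 0.0107), the nuclease gene *Aen* with 0.27 (FDR 0.0215) and the death receptor gene *Tnfrsf10b* with 0.28 (FDR 0.028), and these 3 had a Log2FC of -0.13, -0.11 and -0.08 when scaled to the 7 germ cell markers. The calls of *Aen* and *Tnfrsf10b* were lost without 1 of several libraries, with an FDR of up to 0.0786 (without mutant library 2) and 0.105 (without mutant library 3). The number past the test was 2 with library size alone, 2 without control library 4 and 2 without mutant library 3. *Fas* and *Pmaip1* were below the filter, and both had all mutant libraries (0.409 to 0.744 and 0.818 to 1.23 CPM) above all control libraries (0.189 to 0.354 and 0.252 to 0.658 CPM). Of all genes tested, 16.1% had this pattern. *Fas* had only 3, 4, 3 and 3 counts in control and 6, 10, 4 and 6 in mutant libraries. *Pmaip1* had 8, 5, 3 and 4 against 8, 11, 10 and 18 counts. In raw counts the groups therefore touched, at 4 for *Fas* and at 8 for *Pmaip1*. Without the filter, edgeR gave an FDR of 0.129 for *Fas* and 0.0181 for *Pmaip1*. Both genes were named after their values were seen.

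**Figure D5:**
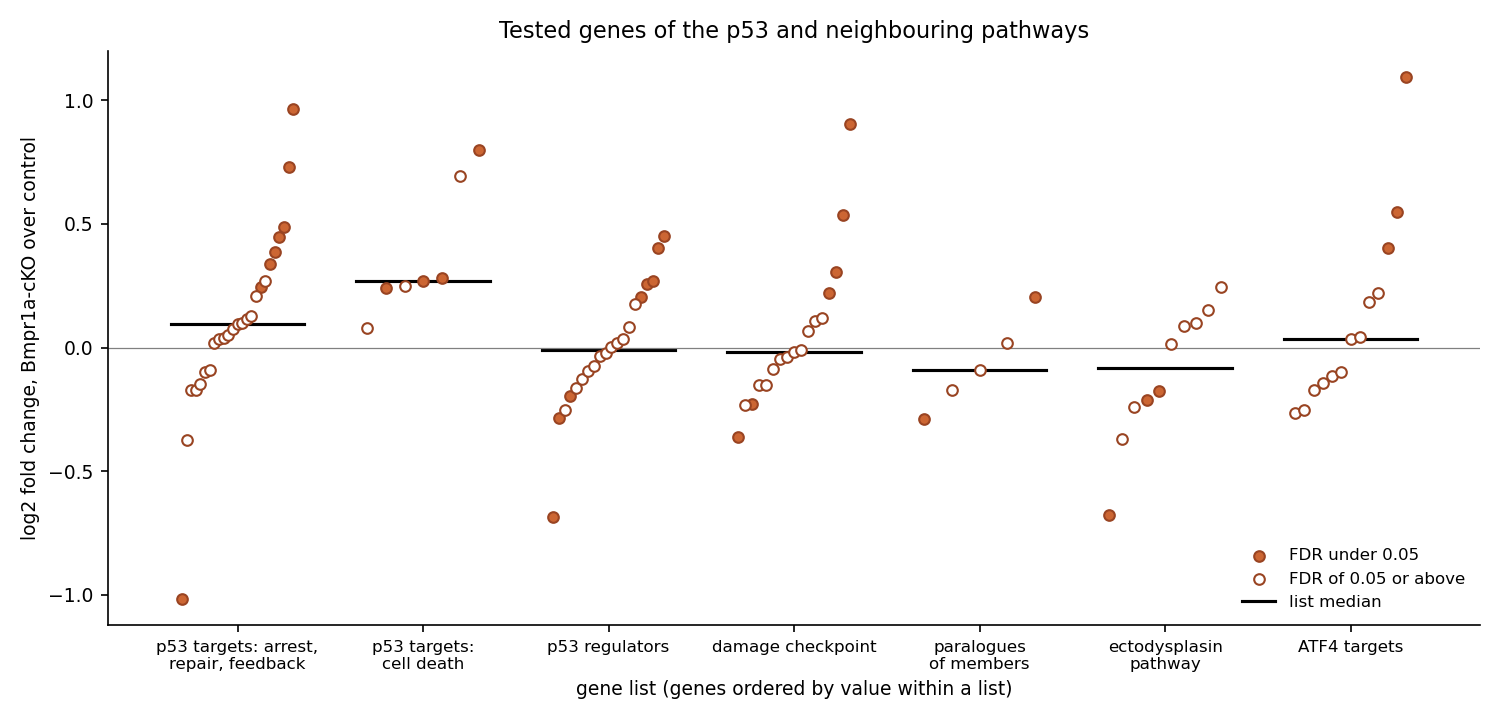
Log2FC of each tested gene in 7 gene lists, ordered within a list, with filled points for an FDR below 0.05 and a line at the list median. The medians run from -0.09 for the paralogues to 0.27 for the p53 targets in cell death, and each list other than the death targets, the ectodysplasin pathway and the ATF4 targets holds filled points on both sides of 0.

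Of 20 regulators upstream of p53, 5 rose, 3 fell and 12 did not pass, with a median Log2FC of -0.0099, and these shares were near the 17.3% higher and 12.5% lower of all genes. The nucleolar gene *Npm1* rose with a Log2FC of 0.40 (FDR 0.00129), the MDM2 deubiquitinase gene *Usp7* with 0.26 (FDR 0.00424), the checkpoint kinase gene *Chek2* with 0.45 (FDR 0.00485) and *Rpl5*, whose ribosomal protein binds MDM2, with 0.27 (FDR 0.00689), and *Usp7* and *Rpl5* turned in sign, to -0.12 and -0.10, when scaled to the 7 germ cell markers. *Rpl5* shares 24.3% of its exon bases with *Fam69a* on the other strand. The 3 that fell are the large kinases that sense DNA damage. *Atr*, the kinase of replication stress, fell (209.96 to 258 CPM in control, 116 to 163 CPM in mutant libraries, Log2FC -0.69, FDR 5.4e-05). *Atm*, the kinase of double-strand breaks, fell with a Log2FC of -0.28 (161 to 186 against 127 to 152 CPM, FDR 0.00471), and *Prkdc*, the kinase of end joining, with -0.20 (FDR 0.0333, and 0.111 without mutant library 4).

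Of 18 genes of the damage checkpoint 17 were tested, 4 rose, 2 fell and 11 did not pass, a share past the test near the 29.8% of all genes, with a median Log2FC of -0.02. The mitotic phosphatase gene *Cdc25c* rose with a Log2FC of 0.90 (FDR 4.6e-05), *Rad9a* of the checkpoint clamp with 0.53 (FDR 0.00165), the mitotic inhibitor kinase gene *Wee1* with 0.30 (FDR 0.00215) and the clamp gene *Hus1* with 0.22 (FDR 0.0332), and *Wee1* and *Hus1* had a Log2FC of -0.07 and -0.16 when scaled to the 7 germ cell markers. The mediator gene *Mdc1*, which binds phosphorylated H2AX, fell with a Log2FC of -0.36 (FDR 0.000591) and *Nbn* of the MRN complex with -0.23 (FDR 0.0487). The calls of *Hus1* and *Nbn* were lost without 1 of most libraries, with an FDR of up to 0.122 (without mutant library 2) and 0.152 (without mutant library 3). *Atrip* was at 0 counts in all 8 libraries and shares 16.0% of its exon bases with *Trex1* on the same strand, which was also at 0.

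In the ectodysplasin pathway, to which EDA2R belongs, 0 of 10 genes rose, 3 fell and 7 did not pass (17.3% of all genes higher and 12.5% lower), with a median Log2FC of -0.08. The ligand gene *Eda* fell, from 17.2, 15.1, 21.3 and 15.1 CPM in control to 8.82, 10.6, 11.4 and 11.6 CPM in *Bmpr1a*-cKO libraries (Log2FC -0.68, SE 0.13, FDR 0.000985), with no overlap between the groups, lower in the mutant where *Eda2r* was higher. Whether the transcript of the EDA-A2 form changed cannot be read from gene counts. *Tnfrsf19*, a related receptor gene, and *Traf3*, an adaptor gene, fell with a Log2FC of -0.21 (FDR 0.0327) and -0.18 (FDR 0.0392), and the number past the test was 1 without control library 1 or without mutant library 2, 3 or 4, and 2 without control library 3 or 4. The EDA-A1 receptor gene *Edar* was at 2.48 to 3.12 CPM in control and 2.32 to 3.66 CPM in *Bmpr1a*-cKO libraries (Log2FC 0.10, FDR 0.742), and its adaptor gene *Edaradd* had a Log2FC of -0.37 (FDR 0.0852, and 0.0337 without control library 2 and 0.0483 without mutant library 1).

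Genes induced by ATF4, which like p53 can induce *Sesn2*, were examined beside it. Of 15 such genes 13 were tested, 3 rose, 0 fell and 10 did not pass, with a median Log2FC of 0.03, and the share that rose was near the 17.3% of all genes. The asparagine synthetase gene *Asns* rose with a Log2FC of 0.55 (FDR 0.000182), the pseudokinase gene *Trib3* with 1.09 (2.97 to 7.12 against 9.54 to 10.9 CPM, FDR 0.000564) and the serine synthesis gene *Phgdh* with 0.40 (FDR 0.00169). *Sesn2*, with -0.04, had the smallest absolute Log2FC of the members tested.

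The 5 genes whose pattern over the 8 libraries was most like that of *Eda2r* were *Ppm1h*, *Tdrd12*, *Trpv4*, *Egln3* and *Rnf125*. Likeness was the root mean square difference of log2 CPM, each gene centred on its own mean, over 13975 tested genes with a mean of at least 1 CPM. It was 0.116 for *Ppm1h*, 0.117 for *Tdrd12*, 0.126 for *Trpv4*, 0.131 for *Egln3* and 0.133 for *Rnf125*, where the median of all genes compared was 0.804. *Ppm1h*, a phosphatase gene, was at 8.57 ± 1.28 CPM (SD, n = 4) in control ovaries and 27.0 ± 4.04 CPM in mutant ovaries. *Tdrd12*, a tudor domain gene of the piRNA pathway in germ cells, was at 12.2 ± 1.94 and 35.2 ± 4.15 CPM, and the prolyl hydroxylase gene *Egln3* at 6.55 ± 0.623 and 17.7 ± 4.12 CPM. The genes share the libraries and the contrast by which *Eda2r* was picked, so this likeness is a description.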

How the data were processed

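Per the labels, the authors prepared strand-specific paired-end libraries from total RNA of pooled fetal ovaries, trimmed the reads with Trimmomatic 0.39, and mapped them to mm10 with STAR 2.5.2, which also counted them. The authors deposited, for each library, a raw count per gene symbol without normalisation. The annotation and strand setting of that counting are not given in the sources used here. They also deposited a table of signal on a CPM scale, of which only the gene set was used, as an alternative filter.

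From the counts, genes were kept by filterByExpr (minimum count 10), TMM factors scaled the libraries, and the 2 genotypes were compared by the edgeR 4.0.16 quasi-likelihood F test in R 4.3.3 (two-sided, Benjamini-Hochberg adjustment over 14249 genes). Rose, fell and changed mean an FDR below 0.05, and a DEG also had an absolute Log2FC above 0.5. All 8 libraries, 4 per genotype, were used, and p-values measure the spread between these pools. Single values were compared by exact permutation. Counts of whole libraries ran from 8562961 to 15365052, and intervals cover counting error only. Exon lengths and overlaps are from GENCODE vM21, matched by symbol.

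The members, gene lists, tests and alternatives were chosen with earlier results of these data known. Genes named are the 8 members, their 5 paralogues, *Cdkn1a*, *Eda*, *Edar*, *Edaradd*, genes that overlap a member, up to 4 genes per direction with the lowest FDR in each p53, checkpoint, ectodysplasin and ATF4 list, the 5 genes most like *Eda2r*, and others where stated or used as markers. Of the p53 regulators, 1 gene is not reported here and was left out of that list. Alternatives were limma 3.58.1 (voom), DESeq2 1.42.0, other scalings, filters and offsets, the replicate block, each library left out, and a prior count of 0.5 in place of 2 for log2 CPM. The procedure was tested on simulated data.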

Additional observations from a re-analysis of the deposited data

Results flagged for a closer look

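In 90 groups of 4 libraries (45 named genes in each genotype), a single library was looked for that lay farther from the others than Dixon's 95% limit, which chance passes in about 1 of 20 groups. *Npm1* was at 866 CPM in control library 2, where the other control libraries were at 725 to 746 CPM. *Usp7* was at 236 CPM in the same library, where the others were at 214 to 217.5 CPM. In none of the 8 genes did a library stand apart in this way. The cause was not tested.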

How the results depend on the processing

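*Trp53*, *Mdm2* and *Ccng1* passed the test, and *Trp53inp1* and *Sesn2* did not, under all 19 alternatives other than the germ cell marker scalings, with a Log2FC of 0.29 to 0.37, 0.20 to 0.30, 0.30 to 0.39, 0.05 to 0.18 and -0.09 to 0.02, and an FDR of *Mdm2* of 0.00355 to 0.0428. The 3 members past the test became 0 with the DEG thresholds. With the GC offset, *Sesn2* was at 0.016 and *Sesn1* at -0.030. *Sesn1* was at -0.018 with upper-quartile scaling and -0.036 with library size alone. With each library left out, *Sesn1* ran from -0.040 to 0.081, and *Edar* from -0.011 without mutant library 3 to 0.21. Library size alone left 2 of 7 death targets past the test.

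Scaling to the 7 germ cell markers left 326 genes higher (2461 before), 3952 DEGs (1449 before), 0 members, 4 arrest and repair targets, 0 death targets and 5 ectodysplasin genes past the test, and turned the Log2FC of *Trp53* (-0.039), *Mdm2* (-0.12), *Ccng1* (-0.0091), *Trp53inp1* (-0.27), *Mdm4* (-0.17), *Sesn1* (-0.36), *Cdkn1a* (-0.17), *Edar* (-0.29), *Apaf1* (-0.13), *Aen* (-0.11), *Tnfrsf10b* (-0.083), *Usp7* (-0.12), *Rpl5* (-0.10), *Wee1* (-0.069) and *Hus1* (-0.16). Scaling to the 3 that did not pass left 920 genes (452 higher), all of them DEGs, 0 members, 3 and 1 of the targets in arrest and in death, and 1 each of the regulators, checkpoint, ectodysplasin and ATF4 genes, with *Sesn1* at -0.072 and *Edar* at -0.0065. The cause was not tested.

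Leaving out each library gave 3101 to 5038 genes past the test (4242 with all), 1871 to 2806 higher, 1288 to 1627 DEGs, 3 members, 6 to 9 and 2 to 6 of the arrest and death targets, 6 to 11 regulators, 4 to 6 checkpoint, 1 to 4 ectodysplasin and 3 to 4 ATF4 genes. Other calls with an FDR above 0.05 without 1 library were those of *Mdm4* (control 1 or 4, mutant 2 or 3), *Aen* (control 2 or 4, mutant 2 or 3), *Tnfrsf10b* (all but control 3, mutant 1 and 4), *Prkdc* (control 1 or 3, mutant 4), *Hus1* (all but control 3 and mutant 1), *Nbn* (all but mutant 1), *Tnfrsf19* (control 1 or 2, mutant 2 to 4) and *Traf3* (all but control 2 and mutant 1), with FDRs of 0.0501 to 0.152. Library size alone also lost *Aen* (FDR 0.0525), *Tnfrsf10b* (0.0606) and *Hus1* (0.107), and DESeq2 lost *Aen* (0.0505) and *Hus1* (0.0631).

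The replicate numbers were not taken to pair the samples, since 1 of the 4 same-numbered pairs did not correlate above 0.1 (correlation of same-numbered libraries 0.20, 0.16, 0.11 and -0.09; numbers 1 and 2 correlated best with their own, 3 and 4 did not). With the replicate block, 4771 genes and 5 ATF4 genes passed the test, *Cdkn1a* had an FDR of 0.0388, and the members past the test stayed 3.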

Other observations

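Markers of other cell types that a fetal ovary can hold were also summed. Of 6 stromal and 7 endothelial genes tested, 0 passed the test (edgeR, FDR below 0.05), with summed levels of 2312 to 3042 and 2293 to 2880 CPM for stroma and of 311 to 364 and 291 to 342 CPM for endothelium in control and *Bmpr1a*-cKO libraries. Of 4 Sertoli cell genes tested 1 fell (*Sox9*, Log2FC -0.44), with a median Log2FC of -0.50, and the summed level of the 5 listed was 11.9 to 13.4 CPM in control and 8.82 to 9.97 CPM in *Bmpr1a*-cKO libraries, without overlap. Of 4 mesonephric genes tested 1 fell (*Gata3*, Log2FC -0.56), with a median of -0.23 and overlapping sums of 22.3 to 26.8 and 16.9 to 24.6 CPM, and of 5 erythroid genes 1 fell (*Hbb-y*, Log2FC -0.30), with a median of -0.11. Over all genes tested, 17.3% rose and 12.5% fell. The 4 globin genes *Hba-a1*, *Hba-a2*, *Hbb-bs* and *Hbb-bt* were at 0 counts in all 8 libraries. How reads that map to more than 1 gene were counted is not given in the sources used here. Whether the RNA of these 4 genes was absent therefore cannot be read from the counts. The single genes of this paragraph were named after their values were seen.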
